A study of Mus musculus with 6 samples.

Results

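The genes described here are the mouse insulin genes Ins1 and Ins2 and the amylin gene Iapp, 3 of the 34745 genes in a table of RNA levels from isolated pancreatic islets. They were chosen by name, for what they encode. Islets came from C57BL/6 mice aged 8 weeks in 3 groups of 2 libraries each. The KO+DNMT3A group was βRapKO islets with Dnmt3a expression, written as LvDnmt3a in the series' design; the KO group was βRapKO islets; and the WT group was wild-type islets. βRapKO stands for loss of Rptor, which encodes the mTORC1 subunit Raptor, in beta cells, and all KO+DNMT3A islets carried it too. Dnmt3a encodes a DNA methyltransferase. The Cre driver, the number of mice behind a library and whether replicates came from separate mice are not given in the sources used here, so the spread between replicates may be in part technical. GFP appears in the deposited column names of WT and KO but not of KO+DNMT3A, and the labels do not say what WT and KO islets had received. By its title the series asked whether restoring DNMT3A lets βRapKO beta cells set up their proper RNA profile.

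Insulin is the hormone by which beta cells lower blood glucose. It is made as preproinsulin, loses its signal peptide on entering the endoplasmic reticulum, folds through disulfide bonds, and is cut in secretory granules into insulin and C-peptide. Rodents carry a pair of insulin genes: Ins2 is the ancestral one with the intron pattern shared with other mammals, and Ins1 arose from it by a retroposition that kept a single intron. Iapp encodes islet amyloid polypeptide, or amylin, which beta cells store in the same granules and secrete with insulin. Amylin slows gastric emptying and acts on satiety, and the rodent peptide does not form the amyloid that the human one can. All these genes are driven in beta cells by homeodomain factors such as Pdx1 and by factors such as Neurod1 that bind the E box.

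Levels are in FPKM, fragments scaled to transcript length and to the library total. A comparison of levels between genes depends on the lengths the authors used, which are not given in the sources used here. The libraries held between 244735 (WT replicate 1) and 1920397 (KO+DNMT3A replicate 1) fragments as inferred from the steps of the FPKM values. KO replicate 2 and WT replicate 1 stood apart from the other 4 libraries. Mitochondrially encoded genes held 50.9% and 44.8% of their summed FPKM, against 16.5% to 26.5% in the other 4, and Gm42418, Gm26917 and Lars2, transcripts linked to ribosomal RNA, held 8.10% and 15.3%, against 2.15% to 4.06%. WT replicate 1 also had the fewest genes above 0, 10579 against 14073 to 16315 in the other 5. Rptor was at 0.71 and 1.93 FPKM in KO+DNMT3A, at 0.38 and 1.51 in KO, and at 0.80 and 1.06 in WT libraries. The listed value of KO replicate 2 was above that of either WT library, but these levels rest on few fragments. By the inferred depth, 1 fragment per kilobase of transcript equalled 1.28 FPKM for KO replicate 2, against 4.09 and 1.03 FPKM for WT replicates 1 and 2. No counting interval was computed for Rptor, so the order of these libraries was not resolved. Dnmt3a was at 3.62 and 3.80 FPKM in KO+DNMT3A, at 3.19 and 2.50 in KO, and at 2.94 and 4.43 in WT. Neither gene passed the limma test in any comparison (adjusted p from 0.997 to 1), so the levels of these genes did not check the labels, and the groups below are the libraries so labelled.

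Ins1 (ENSMUSG00000035804) lies on chromosome 19, 52264297 to 52265476 of GRCm38, on the plus strand, with 1 annotated transcript of 1062 bases in 2 exons. Ins2 (ENSMUSG00000000215) lies on chromosome 7, minus strand, where the transcript used here spans 142678659 to 142679726 and has 478 bases in 3 exons; 9 transcripts are annotated. Iapp (ENSMUSG00000041681) lies on chromosome 6, 142298423 to 142303961, plus strand, with 2 transcripts, of which the one used has 839 bases in 3 exons. Iapp sits inside Slco1a5, a transporter gene on the other strand, with 0 exonic bases in common; Slco1a5 itself was at no more than 1.52 FPKM in any library.

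The coding sequences of Ins1 and Ins2 matched at 300 of 330 aligned columns (90.9%), so fragments of one can be assigned to the other. Iapp matched Ins1 at 45.5% and Ins2 at 46.1% of columns. The first 90 coding bases, which begin with the signal peptide, are shown for the insulin genes because they hold many of the differences; capitals mark the 12 bases at which they differ. They run chr19:52264624-52264713 on the plus strand and chr7:142679444-142679533 on the minus strand, both GRCm38.
Ins1: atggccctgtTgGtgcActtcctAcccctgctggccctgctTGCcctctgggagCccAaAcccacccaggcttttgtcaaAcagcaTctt
Ins2: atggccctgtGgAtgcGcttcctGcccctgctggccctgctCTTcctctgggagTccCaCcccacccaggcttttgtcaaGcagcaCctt
Further on, the longest coding run that the genes share without a difference has 54 bases. It is shown because a fragment that falls within it cannot be told apart between them (chr19:52264894-52264947, plus; chr7:142678716-142678769, minus).
Both: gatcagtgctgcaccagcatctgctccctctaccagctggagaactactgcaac
Of the 1038 windows of 25 bases in the Ins1 transcript, 65 (6.26%) also occurred in Ins2, where they were 14.3% of 454 windows. At 50 bases 7 windows were shared, 0.691% of those of Ins1 and 1.63% of those of Ins2, and at 75 and 100 bases 0 were. Read length is not given in the sources used here, so how often a fragment was ambiguous is unknown.

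The 250 bases before the RefSeq start are shown for Ins1 and Iapp because the genes differed together across libraries by large factors (RefSeq, GRCm38.p6). Capitals mark TAAT on either strand, the core letters bound by homeodomain factors, and CANNTG, the E box; no TAAT overlapped a CANNTG. They lie at chr19:52264047-52264296 for Ins1 and chr6:142298175-142298424 for Iapp, both on the plus strand.
Ins1: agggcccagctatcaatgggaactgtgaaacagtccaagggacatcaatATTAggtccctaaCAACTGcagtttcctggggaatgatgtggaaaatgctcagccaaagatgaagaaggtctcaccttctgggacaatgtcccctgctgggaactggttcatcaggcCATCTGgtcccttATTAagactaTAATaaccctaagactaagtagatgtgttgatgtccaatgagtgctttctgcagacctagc
Iapp: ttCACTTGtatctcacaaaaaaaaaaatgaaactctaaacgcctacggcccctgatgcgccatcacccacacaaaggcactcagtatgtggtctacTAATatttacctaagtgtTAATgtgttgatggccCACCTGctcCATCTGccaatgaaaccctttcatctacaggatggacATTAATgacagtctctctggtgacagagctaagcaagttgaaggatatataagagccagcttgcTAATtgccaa
Ins1 held 3 matches to TAAT and 2 to CANNTG, and Iapp held 5 and 3, with 2 of the Iapp TAAT matches overlapping each other. Such letters are common: 54.9% of 32851 windows of the same length held TAAT and 66.2% held CANNTG. At least 5 TAAT matches occurred in 5.54% of windows and at least 3 CANNTG matches in 12.2%. The counts hold for these windows only, and bases after the annotated start were not searched. For Ins1 the coding sequence begins further on, at 52264624. A match is a string of letters and no evidence of binding.

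Ins1 was at 65360 and 100107 FPKM in KO+DNMT3A, at 119077 and 416 in KO, and at 647 and 100772 in WT, with replicate 1 before replicate 2 here and below. It had the highest FPKM of all genes in 4 libraries, and ranked 48 in KO replicate 2 and 35 in WT replicate 1. Ins2 was at 19193 and 29082 FPKM in KO+DNMT3A, at 43715 and 277 in KO, and at 332 and 31040 in WT. Its rank lay between 2 and 4 in the 4 libraries with high levels, and was 59 in KO replicate 2 and 58 in WT replicate 1. Iapp was at 39508 and 22491 FPKM in KO+DNMT3A, at 54683 and 841 in KO, and at 512 and 33611 in WT. For amylin the ranks were 2 or 3 in the high libraries, 35 in KO replicate 2 and 43 in WT replicate 1. The low libraries were the same for all 3 genes, 1 labelled KO and 1 labelled WT, and KO replicate 1 was the highest library for each gene. In bulk islet RNA, fewer beta cells and less hormone RNA per beta cell cannot be told apart.

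The gap within the KO and WT groups was far beyond counting error. The inferred fragments in KO replicate 2 were 345 for Ins1, 103 for Ins2 and 551 for Iapp, and in WT replicate 1 they were 168, 39 and 105. Exact Poisson 95% intervals, which cover counting error only and assume the transcript lengths above, put Ins1 at 373 to 462 FPKM in KO replicate 2 and 553 to 753 FPKM in WT replicate 1. For Ins2 they were 226 to 336 FPKM and 236 to 453 FPKM, which overlap, so the order of the low libraries was not resolved for this gene. For Iapp they were 773 to 915 FPKM in KO replicate 2 and 419 to 620 FPKM in WT replicate 1.

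**Figure D1:**
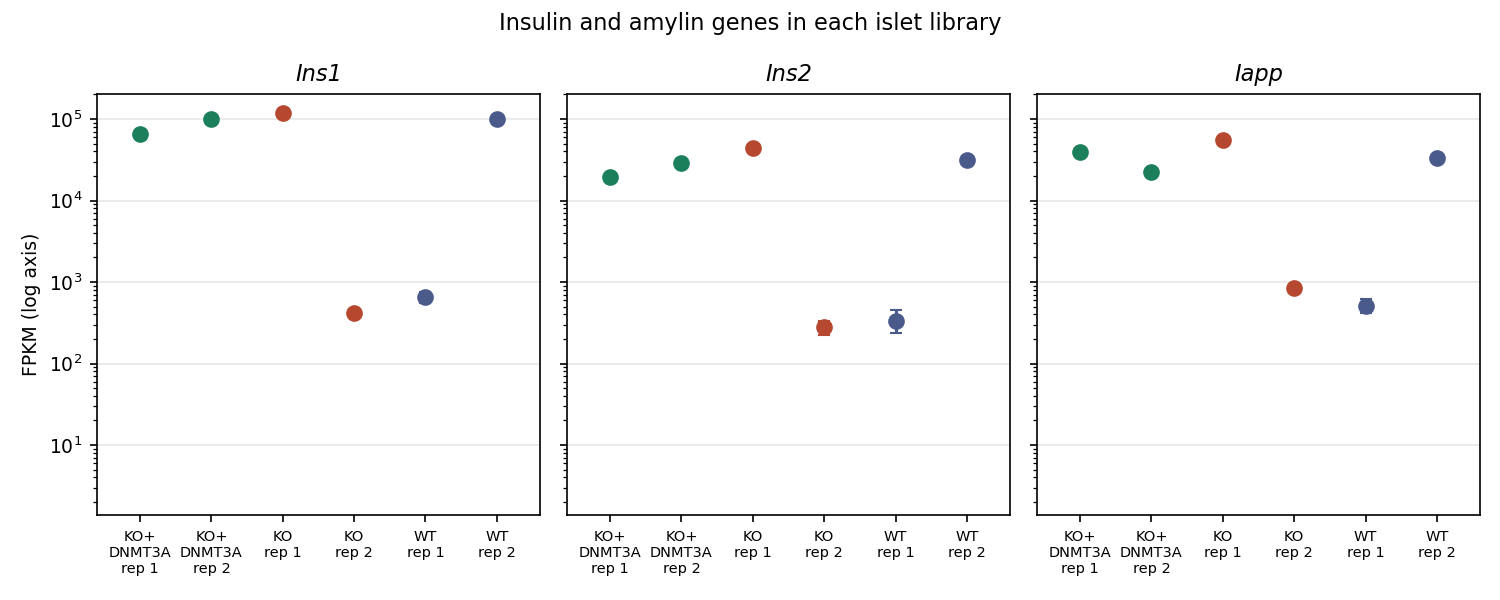
FPKM of Ins1, Ins2 and Iapp (log axis) in each of the 6 libraries, with bars for the 95% Poisson interval of the inferred fragment count. KO replicate 2 and WT replicate 1 lie between 277 and 841 FPKM for every gene, while the other 4 libraries lie between 19193 and 119077 FPKM.

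Within a group the higher library exceeded the lower by 1.53-fold for Ins1, 1.52-fold for Ins2 and 1.76-fold for Iapp in KO+DNMT3A. In KO these ratios were 286, 158 and 65.0, and in WT 156, 93.6 and 65.6. Of the 13233 genes that reached 1 FPKM in 2 libraries, the log2 difference between replicates of Ins1 ranked 2 by size in KO and 3 in WT. Ins2 ranked 3 in KO and 7 in WT, and Iapp ranked 7 in KO and 11 in WT. In KO+DNMT3A the ranks were 6222, 6373 and 4562, near the middle, with differences of -0.62, -0.60 and 0.81 (replicate 1 minus 2) against a median size of 0.58 over all genes. The signs show that replicate 2 had more insulin RNA and less amylin RNA than replicate 1 in that group.

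The group comparisons follow from those values. Ins1 averaged 82733 ± 24570 FPKM in KO+DNMT3A, 59747 ± 83906 in KO and 50710 ± 70799 in WT (SD over 2 libraries each). Ins2 averaged 24137 ± 6992, 21996 ± 30715 and 15686 ± 21714 FPKM in KO+DNMT3A, KO and WT, and Iapp 31000 ± 12033, 27762 ± 38072 and 17062 ± 23405 FPKM. In KO and WT the SD exceeded the mean for every gene, and all groups overlapped in every comparison, whereas 19.9% of genes had groups that did not overlap between KO and WT, 22.6% between KO+DNMT3A and KO, and 27.1% between KO+DNMT3A and WT. Changes below are on the log2(FPKM + 1) scale, from a limma fit of all 13233 genes, with Benjamini-Hochberg adjustment over those genes and a threshold of 0.05, two-sided. The comparisons share libraries and are not independent of each other.

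For KO against WT, which asks what loss of Rptor does, the log2 fold change was -0.20 for Ins1 (SE 2.88, 95% interval -6.89 to 6.50), 0.12 for Ins2 (SE 2.59, -5.90 to 6.14) and 0.71 for Iapp (SE 2.29, -4.61 to 6.03). None of the 3 passed (limma, adjusted p = 1 for each), and neither did any other gene, 0% of those tested, with 240 genes (1.81%) at an unadjusted p under 0.05. Leaving out 1 library set the direction for all 3 genes. Ins1 was at -3.84 without WT replicate 1, 3.44 without WT replicate 2, -4.28 without KO replicate 1 and 3.88 without KO replicate 2. For Ins2 these values were -3.15, 3.39, -3.53 and 3.77, and for Iapp -2.31, 3.73, -2.30 and 3.72. With WT replicate 1 and KO replicate 2 both left out, 1 library was set against 1, and the log2 differences were 0.24 for Ins1, 0.49 for Ins2 and 0.70 for Iapp.

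For KO+DNMT3A against KO, the comparison for the effect of Dnmt3a on top of Rptor loss, the log2 fold change was 3.52 for Ins1 (SE 2.88, 95% interval -3.17 to 10.21), 2.76 for Ins2 (SE 2.59, -3.26 to 8.78) and 2.13 for Iapp (SE 2.29, -3.19 to 7.46). None of them passed (limma, adjusted p = 1), nor did any gene tested (0%), and 147 genes (1.11%) had an unadjusted p under 0.05. The size of these differences rested on KO replicate 2. Without it Ins1 was at -0.56, Ins2 at -0.89 and Iapp at -0.88, with the KO group then a single library. Without KO replicate 1 they were 7.60, 6.41 and 5.15.

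For KO+DNMT3A against WT, which asks how far those islets differ from wild type, the log2 fold change was 3.32 for Ins1 (SE 2.88, 95% interval -3.37 to 10.02), 2.88 for Ins2 (SE 2.59, -3.14 to 8.90) and 2.84 for Iapp (SE 2.29, -2.48 to 8.17). The limma adjusted p was 0.997 for all 3, no gene passed (0%), and 379 genes (2.86%) had an unadjusted p under 0.05. Without WT replicate 1 the differences were -0.32, -0.39 and -0.17, and without WT replicate 2 they were 6.96, 6.15 and 5.86. In either case the WT group was then a single library.

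**Figure D2:**
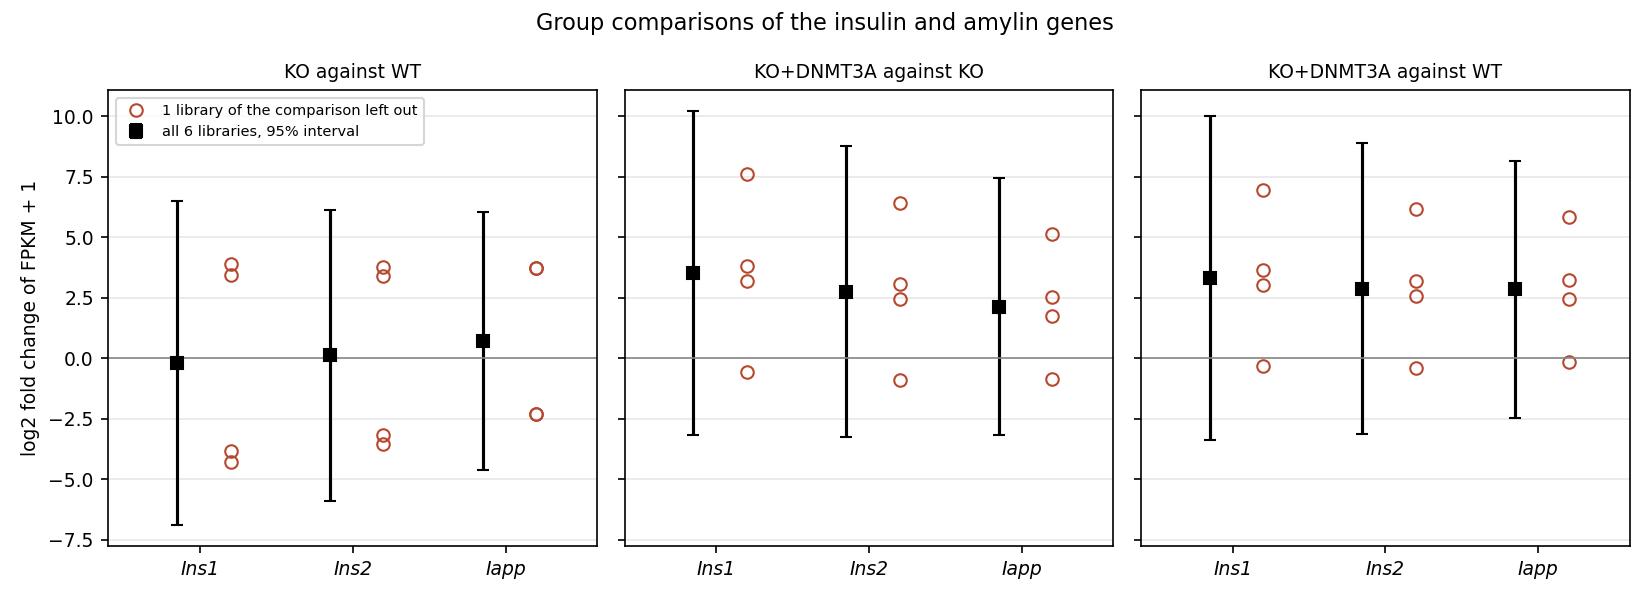
log2 fold change of log2(FPKM + 1) for Ins1, Ins2 and Iapp in the 3 group comparisons, with squares and bars for the limma estimate and 95% interval from all 6 libraries and open circles for the estimate with 1 library of the comparison left out. Every interval spans 0, and in each comparison the circles fall on both sides of it.

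Ratios within a library do not depend on the other genes in it. The Ins1/Ins2 ratio of FPKM was 3.41 and 3.44 in KO+DNMT3A, 2.72 and 1.50 in KO, and 1.95 and 3.25 in WT, replicates 1 and 2 in order. Counting error (exact binomial, 95%) gave 1.20 to 1.89 in KO replicate 2 and 1.37 to 2.84 in WT replicate 1, so both lay below the other WT library at 3.19 to 3.30. KO replicate 1 also lay below the KO+DNMT3A libraries, at 2.69 to 2.76. The level of this ratio depends on the gene lengths the authors used, which are not given in the sources used here. That factor is the same in every library only if each gene had a fixed length, which was not checked. On the log2 scale the ratio averaged 1.78 ± 0.01 in KO+DNMT3A, 1.02 ± 0.61 in KO and 1.33 ± 0.52 in WT (SD, n = 2 each). Both KO+DNMT3A libraries were above both KO and both WT libraries, with differences of 0.76 and 0.44, each at a two-sided exact permutation p of 0.333, the smallest that 2 against 2 can give. Between KO and WT the difference was -0.32 (exact permutation p = 0.667); it was 0.11 without KO replicate 2 and 0.05 without WT replicate 2. Without the low library, KO+DNMT3A exceeded the other KO library by 0.33 and the other WT library by 0.08.

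The ratio of Iapp to Ins1 and Ins2 together was 0.467 and 0.174 in KO+DNMT3A, 0.336 and 1.21 in KO, and 0.523 and 0.255 in WT. KO replicate 2 was the one library with more amylin than insulin FPKM, with a counting interval of 1.07 to 1.38, and the interval of WT replicate 1, 0.410 to 0.665, contained KO+DNMT3A replicate 1, so their order was not resolved. Amylin thus made up 54.8% and 34.3% of the 3 genes' FPKM in these libraries, and between 14.8% and 31.8% in the other 4. Ins1 made up 27.1% in KO replicate 2 and 43.4% in WT replicate 1, against 52.7% to 66.0% elsewhere. The share of Ins2 was the steadiest, between 15.5% and 22.2% in all 6 libraries. By group, the log2 ratio of Iapp to insulin averaged -1.81 ± 1.01 in KO+DNMT3A, -0.65 ± 1.31 in KO and -1.45 ± 0.73 in WT (SD, n = 2 each). The difference was -1.16 for KO+DNMT3A against KO, -0.36 for KO+DNMT3A against WT and 0.81 for KO against WT, each with overlapping groups (exact permutation p = 0.667). Adjusted over the 12 exact tests of ratios and shares, every p was 1. KO+DNMT3A against KO was -2.09 without KO replicate 1, -0.24 without KO replicate 2, -1.87 without KO+DNMT3A replicate 1 and -0.45 without KO+DNMT3A replicate 2. KO+DNMT3A against WT was 0.16 without WT replicate 1, -0.87 without WT replicate 2, -1.07 without KO+DNMT3A replicate 1 and 0.36 without KO+DNMT3A replicate 2. KO against WT was 1.73 without KO replicate 1, -0.12 without KO replicate 2, 1.32 without WT replicate 1 and 0.29 without WT replicate 2.

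**Figure D3:**
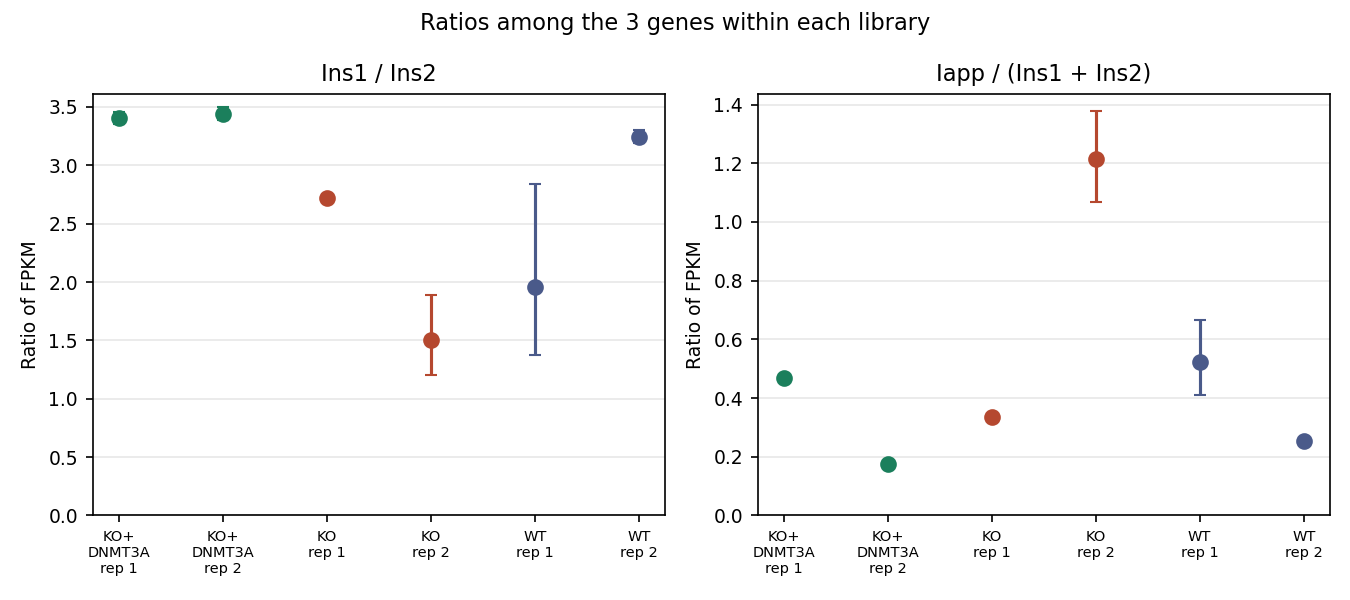
Ratios of FPKM within each library, Ins1 to Ins2 on the left and Iapp to the sum of Ins1 and Ins2 on the right, with bars for the exact binomial 95% interval of the inferred fragments. Iapp over insulin is highest in KO replicate 2 (1.21), while the interval of WT replicate 1 contains KO replicate 1 on the left (2.72) and KO+DNMT3A replicate 1 on the right (0.467).

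Together Ins1, Ins2 and Iapp held 24.2% and 27.7% of all FPKM in KO+DNMT3A, 40.7% and 0.240% in KO, and 0.259% and 30.0% in WT. In KO and WT the libraries of one label thus differed by more than the group averages did. Averages were 25.9 ± 2.53% in KO+DNMT3A, 20.5 ± 28.6% in KO and 15.1 ± 21.0% in WT (SD, n = 2 each). The difference was 5.46 points for KO+DNMT3A against KO, 10.8 for KO+DNMT3A against WT and 5.38 for KO against WT (exact permutation p = 1 for each). Without KO replicate 2 the first was -14.8 points, without WT replicate 1 the second was -4.01, and with both left out the lone KO library exceeded the lone WT library by 10.8 points. Without WT replicate 1 alone KO against WT was -9.47 points, and without KO replicate 1 it was -14.9. Since mitochondrially encoded genes took more of the low libraries, the share was also set against the remaining genes. It was then 32.8% and 37.5% in KO+DNMT3A, 48.8% and 0.489% in KO, and 0.470% and 40.8% in WT. With the rRNA-associated transcripts also removed, KO replicate 2 was at 0.586% and WT replicate 1 at 0.650%, against 34.7% to 50.1% in the other 4, so the gap was there on each of these scales.

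**Figure D4:**
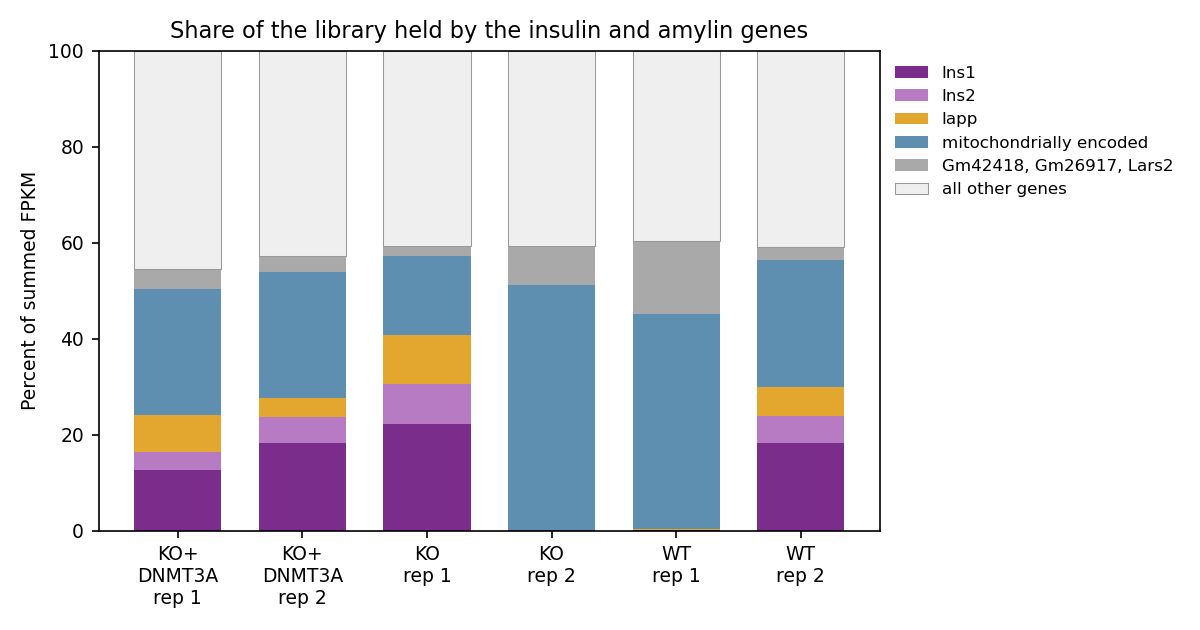
Percent of summed FPKM held by Ins1, Ins2 and Iapp, by mitochondrially encoded genes, by 3 rRNA-associated transcripts and by all other genes in each library. The 3 genes fill 24.2% to 40.7% of 4 libraries and less than 1% of KO replicate 2 and WT replicate 1, where the mitochondrial share is largest.

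Of the hormone genes of other islet cells, Gcg, Ppy, Sst and Pyy had smaller gaps between libraries, and none of these or Ghrl passed the limma test between groups. Gcg, the glucagon gene of alpha cells, was at 1932 and 1592 FPKM in KO+DNMT3A, at 1623 and 2454 in KO, and at 1245 and 1197 in WT. Ppy, the pancreatic polypeptide gene, was at 9269 and 14437 FPKM in KO+DNMT3A, at 18361 and 8399 in KO, and at 1178 and 6511 in WT. Sst, the somatostatin gene of delta cells, was at 4036 and 10846 FPKM, 4873 and 2736 FPKM, and 443 and 2560 FPKM in the same order. Glucagon RNA was thus highest in KO replicate 2, where Ppy and Sst lay within the range of the other 5 libraries, while Ppy and Sst were lowest in WT replicate 1. Pyy, encoding peptide YY, was at 2223 and 4196 FPKM, 3191 and 2712 FPKM, and 512 and 1553 FPKM, and Ghrl, the ghrelin gene, at no more than 9.53 FPKM in any library. Ghrl had an unadjusted limma p of 0.0178 for KO against WT (adjusted p = 1), and Sst one of 0.0329 for KO+DNMT3A against WT (adjusted p = 0.997). Ins1, Ins2 and Iapp made up 87.7% and 83.0% of the FPKM of these 8 hormone genes in KO+DNMT3A, 88.6% and 8.60% in KO, and 30.6% and 93.3% in WT. The mean shares were 85.3 ± 3.30%, 48.6 ± 56.5% and 62.0 ± 44.3%, with exact permutation p of 1 for KO+DNMT3A against KO and against WT and 0.667 for KO against WT.

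Markers of other cells also differed between the libraries. The summed FPKM of 7 duct markers was 1178 and 200 in KO+DNMT3A, 253 and 130 in KO, and 2602 and 256 in WT, and that of 7 stellate and fibroblast markers was 333 and 141, 205 and 238, and 1041 and 192. Both were highest in WT replicate 1, the library with little insulin RNA, while KO replicate 2 had the lowest duct sum of all. The sum of 7 macrophage markers was lowest in both KO+DNMT3A libraries, at 215 and 143 FPKM, against 481 and 306 in KO and 501 and 476 in WT. None of the 7 passed the limma test in any comparison. An unadjusted limma p under 0.05 was found for 3 of them for KO+DNMT3A against KO and 5 against WT. Over all genes that share was 1.11% and 2.86%, and groups did not overlap for 22.6% and 27.1% of genes. The sum itself was not tested. Endothelial markers summed to between 18.3 and 46.6 FPKM and Schwann markers to between 11.1 FPKM and the 76.3 FPKM of KO replicate 2. Of 11 acinar markers 9 were listed at 0 in all libraries and the sum did not exceed 10.5 FPKM. The 7 beta cell markers summed to 560 and 580 FPKM in KO+DNMT3A, 761 and 149 in KO, and 92.0 and 977 in WT, with all 7 lower in KO replicate 2 and in WT replicate 1 than in the other library of the group. Among them Mafa was listed at 0 in both of these libraries and Slc2a2 in WT replicate 1, and the other 5 were above 0 in all 6 libraries. The part of cell makeup, of RNA quality or of depth in the insulin and amylin values was not tested.

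In KO and in WT, transcription factors that act on the insulin and amylin promoters differed less between replicates than Ins1, Ins2 and Iapp did. Neurod1, which binds the E box with Tcf3, was at 205 and 179 FPKM in KO+DNMT3A, 169 and 67.1 in KO, and 47.9 and 123 in WT. Pdx1, the homeodomain factor of the insulin promoter, was at 71.2 and 111, 76.0 and 27.9, and 17.0 and 98.0 FPKM in the same order. Nkx6-1, which keeps beta cells from an alpha fate, was at 66.2 and 160, 90.1 and 49.4, and 43.0 and 151 FPKM. All 3 were lower in KO replicate 2 and WT replicate 1 than in the other library of the group. Over the 19 factors tested, the median log2 difference of replicate 1 minus 2 was 0.54 in KO and -1.21 in WT, against 8.16 and -7.28 for Ins1. Of 20 factors listed none passed in any comparison, nor had any an unadjusted p under 0.05. Their median log2 fold change was 0.36 for KO+DNMT3A against KO, 0.53 for KO+DNMT3A against WT and 0.03 for KO against WT, beside 0.19, 0.23 and 0.03 over all genes.

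Genes that fold, cut and store the prohormones lay, in KO and WT, between the factors and the hormones by their median difference between replicates. Single genes fell outside that span on either side. In WT, Pcsk1 differed by -6.33 against -6.03 for Iapp, and Hsp90b1 by -0.36 against a median of -1.21 for the factors. Chga, the granule protein chromogranin A, was at 2953 and 2501 FPKM in KO+DNMT3A, 3094 and 279 in KO, and 239 and 3590 in WT. Chgb, chromogranin B, was at 4083 and 1556, 2626 and 166, and 71.6 and 1208 FPKM. Pcsk1n, the inhibitor of the convertase PC1/3, was at 867 and 3282, 1161 and 1309, and 846 and 1676 FPKM, and so was not low in KO replicate 2. Of the 28 genes, all tested, 26 were higher in KO replicate 1 than in replicate 2, with a median log2 difference of 2.25, and 28 were lower in WT replicate 1 than in replicate 2, with a median of -2.28. Over all genes those medians were 0.21 and -0.38. None passed between groups, nor had any an unadjusted p under 0.05. The median log2 fold change was 0.58 for KO+DNMT3A against KO, 0.96 for KO+DNMT3A against WT and 0.25 for KO against WT, beside 0.19, 0.23 and 0.03 over all genes.

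The glucose sensing and secretion machinery that releases the hormones had a median log2 difference of replicate 1 minus 2 of 1.53 in KO and -1.68 in WT. Ucn3, a peptide of mature beta cells, was at 189 and 119 FPKM in KO+DNMT3A, 205 and 20.8 in KO, and 5.53 and 337 in WT. G6pc2, the islet glucose-6-phosphatase, was at 131 and 100.3 FPKM, 271 and 6.78, and 5.76 and 231 FPKM. Abcc8, the sulfonylurea receptor of the potassium channel that starts secretion, was at 131 and 221, 122 and 96.0, and 52.8 and 149 FPKM. None of the 18 genes passed, with 0 at an unadjusted p under 0.05. On the mean of log2(FPKM + 1), all 18 were higher in KO+DNMT3A than in KO (median difference 0.70), 16 were higher in KO+DNMT3A than in WT (0.89) and 13 were higher in KO than in WT (0.19). Over all genes the medians were 0.19, 0.23 and 0.03 in the same order, and the share of all genes that were higher was not counted. The log2 scale gives weight to the low KO replicate 2, and the mean FPKM of G6pc2 was lower in KO+DNMT3A than in KO, at 116 against 139.

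Receptors for the hormones and the enzyme that degrades them varied from gene to gene. Insr, the insulin receptor, was at 5.81 and 8.20 FPKM in KO+DNMT3A, 4.55 and 6.60 in KO, and 7.41 and 7.25 in WT. Ide, the insulin-degrading enzyme, which also cuts amylin, was at 9.40 and 5.94, 5.77 and 4.44, and 6.49 and 5.78 FPKM. Igf1r, the receptor for insulin-like growth factor, was low where insulin was low, at 34.6 and 39.5 FPKM in KO+DNMT3A, 40.8 and 2.57 in KO, and 3.64 and 21.7 in WT. Insrr, the insulin receptor-related receptor, was likewise at 14.1 and 24.6, 13.8 and 3.40, and 2.71 and 41.4 FPKM. Irs2, which relays signals of the insulin and insulin-like growth factor receptors, was at 18.6 and 53.6, 23.7 and 32.5, and 29.4 and 15.3 FPKM, and its relative Irs1 was at no more than 0.98 FPKM. The amylin receptor is the calcitonin receptor Calcr joined to a Ramp protein. Calcr was listed at 0 in all 6 libraries, and its relative Calcrl at no more than 0.53 FPKM. Ramp1, Ramp2 and Ramp3 reached at most 5.08, 3.88 and 8.40 FPKM, and Igf2r, which clears insulin-like growth factor, was between 1.68 and 8.82 FPKM. Of 12 genes 9 were tested, none passed and 0 had an unadjusted p under 0.05. Within groups, 6 of the 9 were higher in KO replicate 1 than in replicate 2 and 6 of 9 in WT replicate 1 than in replicate 2.

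The genes with profiles nearest to the mean of Ins1, Ins2 and Iapp were found by the root mean square difference of centred log2(FPKM + 1) over the 6 libraries. For the 3 genes themselves this was 0.47, 0.15 and 0.54, and the median over 13230 other genes was 3.01. Of all other genes Dapl1 was nearest, at 0.44, with 64.3 and 155 FPKM in KO+DNMT3A, 131 in KO replicate 1 and 173 in WT replicate 2, and listed at 0 in KO replicate 2 and WT replicate 1. Prss53, a serine protease gene, followed at 0.65, and Pdyn, the precursor of the opioid peptide dynorphin, at 0.68. Prss53 was at 153 and 109 FPKM, 172 and 2.11, and 3.36 and 231 FPKM in KO+DNMT3A, KO and WT. Fkbp1b, which binds the calcium release channel, was at 0.75 and Ero1lb, the oxidase that helps proinsulin form its disulfide bonds, at 0.86. Ero1lb was at 205 and 150 FPKM in KO+DNMT3A, 231 and 7.86 in KO, and 3.86 and 231 in WT. Fam151a came next, Pcsk1 stood at 0.94 and Tmed6 was the farthest of the 8. Like Dapl1, the genes Fkbp1b, Fam151a and Tmed6 were listed at 0 in KO replicate 2 and WT replicate 1. For these genes the size of the drop depends on the pseudocount. Pcsk1 encodes PC1/3, the convertase that opens proinsulin and pro-amylin, and was at 133 and 30.1 FPKM, 101 and 1.75, and listed at 0 and at 79.2 FPKM in the same order. Ero1lb and Pcsk1 are also among the 28 folding and processing genes above. The measure was taken over the same libraries in which the genes were low, and it carries no test.

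**Figure D5:**
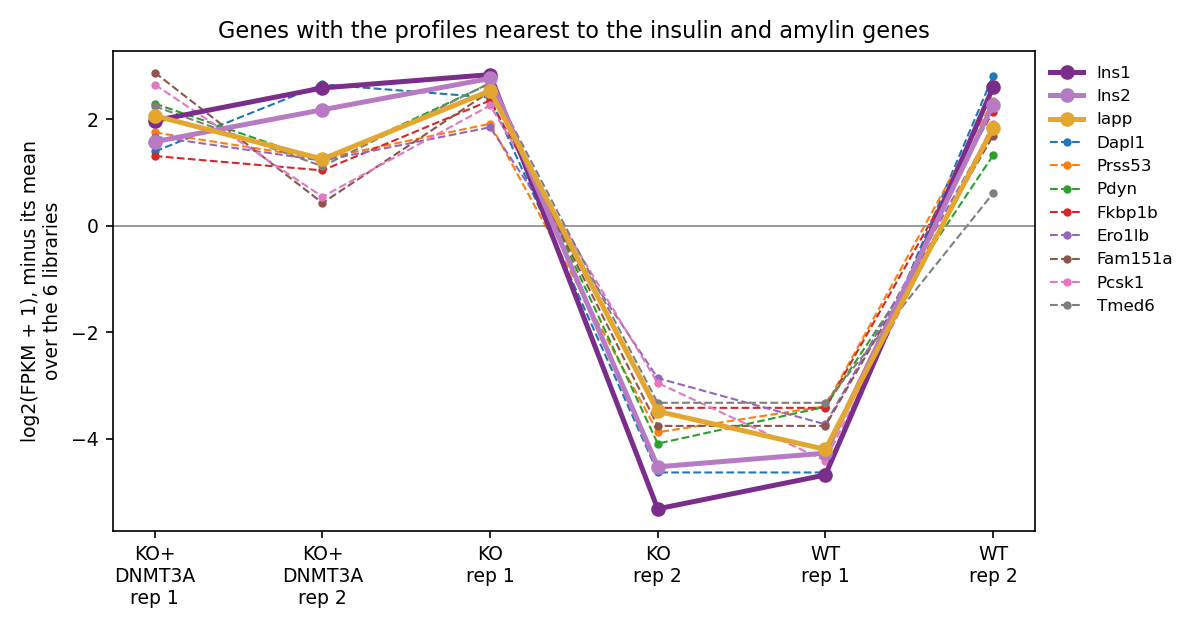
log2(FPKM + 1) minus its mean over the 6 libraries for Ins1, Ins2, Iapp (thick lines) and the 8 genes with the nearest profiles (dashed). All lie above their mean in both KO+DNMT3A libraries, KO replicate 1 and WT replicate 2, and below it in KO replicate 2 and WT replicate 1.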

How the data were processed

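Poly-A RNA of isolated mouse islets was sequenced in 6 libraries, per the labels' protocols, which name an RNeasy Micro kit and a TruSeq kit. The deposited values are FPKM per gene, as named in the file's columns. HISAT2 2.0.4, StringTie 1.3.0, edgeR and mm10 are listed, per the submitters' processing notes, with no role or order. No count table was used here. Symbols were matched by gene identifier (478 of 34745 genes had none) and annotation is GENCODE M21 on GRCm38.

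The 13233 genes reaching 1 FPKM in 2 or more libraries were fitted as log2(FPKM + 1) in limma 3.58.1 with trended, robust variances, all 6 libraries in 1 fit, and Benjamini-Hochberg adjustment per comparison at 0.05. A pseudocount of 1 understates changes of low genes. Ratios and shares had exact permutation tests over libraries, 2 against 2. Depth was inferred from genes with 1 transcript, where 84.3% to 91.7% of values up to 20 fragments were whole multiples of 1 fragment within 0.01. The fit was also run on simulated data with known changes. Its recovery of them is not given here, so the absence of passing genes does not show that no gene differed. The genes, lists and tests were chosen with earlier results of these data known. Named are the 3 genes, the 8 nearest profiles, the 3 highest genes of each pathway list, every receptor and degradation gene and all other hormones. Alternatives were 2 filters, another pseudocount, 2 scalings, no trend, only the groups compared, a replicate block, other denominators and each library left out. Leaving out WT replicate 1 and KO replicate 2 together, and a crossed block, were added after seeing the data. Sequences are from GRCm38 and, for promoters, RefSeq (entries for Ins1 and Iapp). Python 3.11.15, scipy 1.17.1 and R 4.3.3 were used.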

Additional observations from a re-analysis of the deposited data

How the results depend on the processing

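The count of genes past the threshold was 0 in every comparison under every alternative run, and the adjusted p of Ins1, Ins2 and Iapp lay between 0.251 and 1 in limma. Apart from leaving out libraries, 1 alternative turned a direction: with quantile normalization Ins2 in KO against WT was at -0.027. With WT replicate 1 and KO replicate 2 both left out, chosen after seeing the data, Ins1 in KO against WT was at 0.24; KO+DNMT3A against KO was at -0.56, -0.89 and -0.88 for Ins1, Ins2 and Iapp; KO+DNMT3A against WT was at -0.32, -0.39 and -0.17. The log2 ratio of Iapp to insulin in KO+DNMT3A against WT was then 0.16, and the share differed by -14.8 points from KO and -4.01 points from WT. Leaving out 1 library at a time, Ins1 ranged between -4.28 and 3.88, Ins2 between -3.53 and 3.77 and Iapp between -2.31 and 3.73 in KO against WT. In KO+DNMT3A against KO they ranged between -0.56 and 7.60, -0.89 and 6.41, and -0.88 and 5.15. In KO+DNMT3A against WT they ranged between -0.32 and 6.96, -0.39 and 6.15, and -0.17 and 5.86. The log2 Ins1/Ins2 ratio ranged between -0.75 and 0.11 in KO against WT. It ranged between 0.33 and 1.19 in KO+DNMT3A against KO, and between 0.08 and 0.81 in KO+DNMT3A against WT. In both KO+DNMT3A comparisons its sign could not turn with 1 library left out, since both KO+DNMT3A libraries lay above all KO and WT libraries. The log2 ratio of Iapp to insulin ranged between -0.12 and 1.73 in KO against WT, -2.09 and -0.24 in KO+DNMT3A against KO, and -1.07 and 0.36 in KO+DNMT3A against WT. The share ranged between -14.9 and 25.6 points in KO against WT, -14.8 and 25.7 in KO+DNMT3A against KO, and -4.01 and 25.7 in KO+DNMT3A against WT. In all, 21 of 108 values turned with 1 library left out and 11 of 132 under the other alternatives. Many of these values could not turn, so the counts understate how easily a direction changed. Counts of genes past the threshold have no sign, and leaving out a library outside a comparison does not move its fold changes. Other filters, no trend, the replicate block and fitting only the groups compared also leave a fold change as it was. Replicate numbers are those of the sample titles and were not shown to pair samples. Deviations of libraries with the same replicate number correlated at 0.318 for KO+DNMT3A and KO, 0.101 for KO+DNMT3A and WT and -0.269 for KO and WT. The deposited column names carry other numbers, 2 and 3 for KO+DNMT3A, 1 and 3 for KO, and 3 and 6 for WT, replicate 1 first. Number 3 thus belongs to KO replicate 2, WT replicate 1 and KO+DNMT3A replicate 2, of which the last was not low in insulin. What these numbers stand for is not given, and pairing by them was not tested. With the replicate block 0 genes passed in each comparison, and with crossed numbers 0 passed as well. With the block Ins1 stayed at 3.52 for KO+DNMT3A against KO, at 3.32 for KO+DNMT3A against WT and at -0.20 for KO against WT. A block cannot move these estimates, since each group holds both replicate numbers. Depth limited WT replicate 1 most, where Ins2 rested on 39 inferred fragments.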
